A study of Drosophila melanogaster with 2 samples.

Results

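The aminoacyl-tRNA synthetase and translation factor genes of Drosophila melanogaster were examined for promoter binding of CG32772, a protein of the fly tagged with eGFP, in whole embryos. The genes were chosen by symbol alone: a 3-letter amino acid code followed by RS, with or without -m for the mitochondrial enzyme and with GluProRS included, or a symbol that starts with eIF, eEF or eRF. They number 87 of the 13968 protein-coding genes on the chromosome arms, 33 synthetases and 54 translation factors. The synthetase subunit genes alpha-PheRS and beta-PheRS have symbols outside the rule and were not counted. In the study, chromatin of a transgenic strain carrying a CG32772-eGFP fusion was immunoprecipitated with an antibody against GFP and sequenced (ChIP-seq). The embryos were aged 0 to 24 h. There was 1 group with 2 biological replicates and no other condition, and whole embryos mix all tissues. The files hold peak positions with the authors' signal per peak and no read counts, so the sequencing depth behind a peak is unknown. The labels say that the line carries an insertion targeting CG32772, and do not give the copy number or expression of the fusion.

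Aminoacyl-tRNA synthetases attach each amino acid to its tRNA, and most cells need a separate set of enzymes for the cytosol and for mitochondria. Initiation factors (eIF) bring the small ribosomal subunit, the initiator tRNA and the mRNA together, elongation factors (eEF) deliver charged tRNAs and move the ribosome along, and release factors (eRF) end synthesis at stop codons. Nearly all these genes are used in every tissue, although some factors have paralogues with restricted expression, such as the eIF4E relatives of the testis.

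CG32772 was found at 25 of the 87 promoters (28.7%, exact 95% Clopper-Pearson interval 19.5 to 39.4%), where a gene is bound if a peak summit lies within 500 bp of any of its transcription start sites (TSSs). The share over all protein-coding genes was 17.1%. Of the synthetases 12 of 33 were bound (36.4%, 20.4 to 54.9%), and of the translation factors 13 of 54 (24.1%, 13.5 to 37.6%). The intervals of the classes overlap, and the difference between synthetases and factors was not tested. These counts come from the stricter joint list of both libraries, with 4699 peaks on the arms. In the libraries' own thresholded lists, 17 members were bound in replicate 1 (19.5%, against 12.9% of all genes) and 19 in replicate 2 (21.8%, against 14.1%), and 15 in both. Synthetases numbered 9 of 33 in each library, while factors numbered 8 in replicate 1 and 10 in replicate 2. No test of the lists was made, and the intervals cover counting error only.

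All 12 bound synthetases under the symbol rule had a divergent partner within 500 bp, as did 1284 of all 2383 bound genes. By contrast, beta-PheRS, a bound subunit gene outside the rule, has none. A gene has such a partner if the TSS of another protein-coding gene on the opposite strand lies at or upstream of one of its own, pointing away from it, within 500 bp. Of all protein-coding genes, 27.3% have one. Among synthetases 21 of 33 do (63.6%), and among translation factors 22 of 54 (40.7%). With a partner, 12 of 21 synthetases were bound (57.1%, 34.0 to 78.2%) and 9 of 22 factors (40.9%, 20.7 to 63.6%), against 33.7% of all genes with a partner. Without one, 0 of 12 synthetases were bound (exact upper limit 26.5%) and 4 of 32 factors (12.5%, 3.51 to 29.0%), against 10.8% of all genes without a partner. Over both classes 48.8% of members with a partner were bound (33.3 to 64.5%) and 9.09% of those without (2.53 to 21.7%). With a partner, a summit at either start site can count for the gene, and how far this raises the share was not tested. With partners counted within 250 bp only, 12 of 25 members with one were bound (48.0%, all genes 30.5%) and 13 of 62 without (21.0%, all genes 14.8%), so the share without a partner depends on that distance. GluProRS (260 bp), ArgRS-m (312 bp), AsnRS (369 bp), ThrRS (466 bp) and IleRS (470 bp) are bound synthetases whose partners lie beyond 250 bp. They count as without a partner at that distance, and the synthetase split was not counted there. When replicate 2 was left out, the count of factors fell from 13 to 8 (14.8%, all genes 12.9%). That of members without a partner fell from 4 to 2 (4.55%, all genes without one 7.65%). The synthetase AspRS-m, which has no partner, is an exception in other lists: its promoter was bound in the own list of replicate 2 (signal 93.3) and in the other joint list (signal 133.8), but not in the main list and not by any call of replicate 1.

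**Figure D1:**
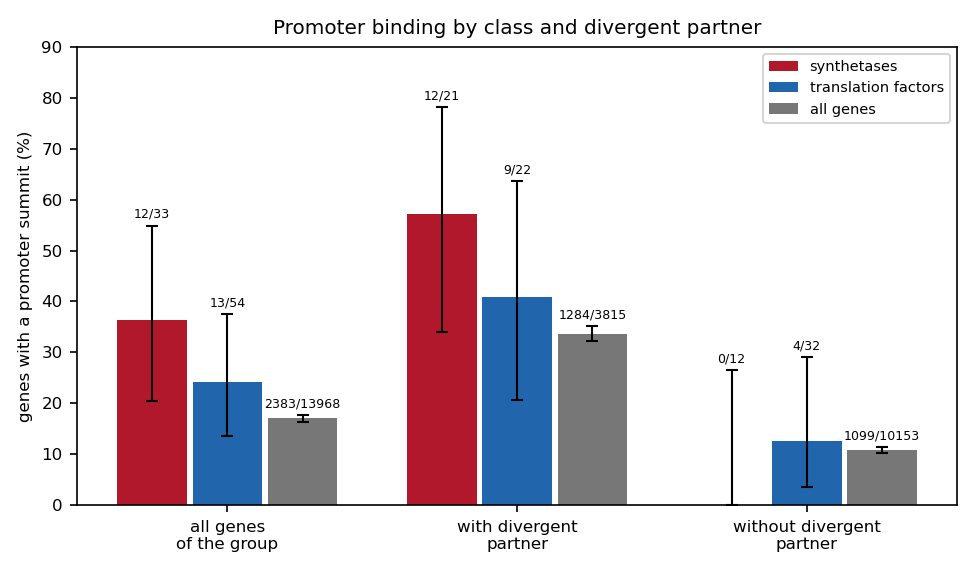
Share of genes with a promoter summit (y axis, %) for synthetases, translation factors and all protein-coding genes, in total and split by divergent partner, with bound and total numbers above each bar and exact 95% intervals as error bars. In each class the share is higher with a partner within 500 bp than without, and 0 of 12 synthetases without one were bound. With a partner, a summit at either start site can count for the gene.

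The strongest synthetase promoter was that of GluProRS, which encodes a fused enzyme for glutamate and proline. Its peak had a signal of 576 in the joint list, 296 in replicate 1 and 280 in replicate 2, and ranked 164 of 4699. SerRS, the serine enzyme, followed with 519.6 in the joint list, 212 in replicate 1 and 298 in replicate 2. The isoleucine enzyme gene IleRS had 353, 179 and 178 in the same order, and the lysine enzyme gene LysRS had 320.2, 148 and 173. These 4 were in the own lists of both libraries, at ranks of 564 or better in each library's full ranked list. ThrRS (joint signal 229.8, replicates 126 and 112) and AspRS (166.6, replicates 75.2 and 91.8) were also in both own lists. MetRS (98.2, replicates 50 and 49.7) passed in replicate 1 alone, and AsnRS (75.3, replicates 40.4 and 36.0) in neither library. The 8 bound cytosolic synthetases were out of 18 (44.4%, 21.5 to 69.2%). Cytosolic here means a symbol without -m, and whether such a gene also serves mitochondria was not checked.

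Mitochondrial synthetases, those with -m in the symbol, were bound in 4 of 15 cases (26.7%, 7.79 to 55.1%). Their joint signals were below those of the leading cytosolic ones, but AspRS (166.6), MetRS (98.2) and AsnRS (75.3) lay in the same range. ProRS-m, the proline enzyme, had a joint signal of 179, with 67.0 in replicate 1 and 105 in replicate 2, and was in both own lists. LeuRS-m had 115.2 jointly, 34.8 in replicate 1 and 81.1 in replicate 2, and passed in replicate 2 only. CysRS-m (105, replicates 58.0 and 49.2) and ArgRS-m (75.2, replicates 36.7 and 30.8) were in neither own list. CysRS-m was bound in both joint lists, and ArgRS-m in the main one but not the other. Among the unbound cytosolic enzymes, ArgRS, whose divergent partner is CG8578, had a peak in the own list of replicate 1 (signal 62.2) and no call in replicate 2. ValRS, LeuRS, AlaRS, TyrRS and GlnRS had weak calls within 500 bp of a TSS in each library, from 7.48 at GlnRS in replicate 1 to 34.5 at ValRS in replicate 2. TrpRS had a weak call in replicate 1 alone, GlyRS and HisRS in replicate 2 alone, and CysRS none. Such calls were common, at 40 of 62 unbound members and 8342 of 11585 unbound genes in either library.

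**Figure D2:**
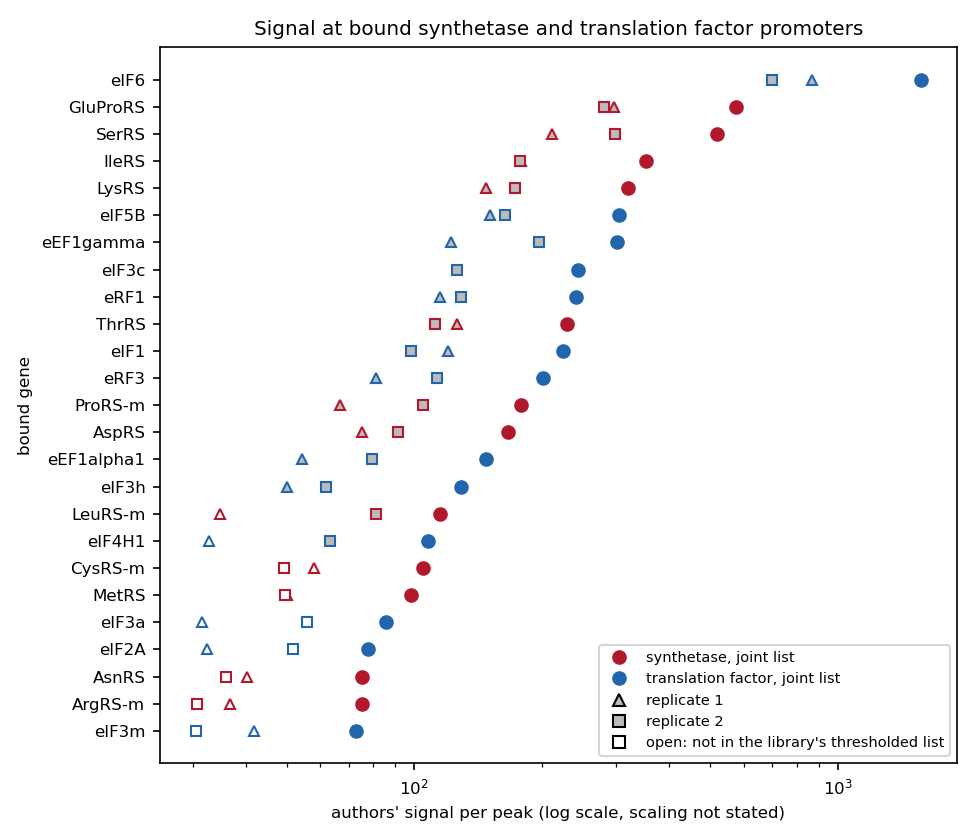
Authors' signal per peak (x axis, log scale, scaling not stated) for each of the 25 bound genes (y axis), in the joint list (circles) and in the overlapping call of each library's ranked list (triangles for replicate 1, squares for replicate 2, open where the call is not in that library's thresholded list). eIF6 stands at 1568, GluProRS and SerRS at 576 and 519.6, and the weakest gene, eIF3m, at 72.8.

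The 13 bound translation factors were led by eIF6, an initiation factor that keeps the large ribosomal subunit from joining too early. Its peak (2R, positions 23850235 to 23850570) ranked 16 of 4699, with a signal of 1568 jointly, 869 in replicate 1 and 700 in replicate 2. The summit lay 100 bp upstream of the TSS, in an annotated non-coding exon. The gene has no divergent partner among protein-coding genes, the only ones the partner rule covers. The next member, GluProRS, had 576. eIF5B, the GTPase that joins the ribosomal subunits, had 304, 151 and 164. eIF1, which guards the choice of start codon, had 225, 120 and 98.3. Both were in the own lists of each library, and so was eIF3h (129, replicates 50.1 and 62.0).

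The remaining bound eIF3 genes were near the threshold or uneven between libraries. eIF3 is a scaffold of many subunits on the small ribosomal subunit. Of its 16 genes 4 were bound (25%, 7.27 to 52.4%), beside 17.1% of all genes. eIF3a (85.7, replicates 31.6 and 56.0) and eIF3m (72.8, replicates 41.9 and 30.6) were in neither own list. eIF3c had a joint signal of 244 and 126 in replicate 2, but no overlapping call in replicate 1, and it was missing from the other joint list. eIF2A (77.8, replicates 32.4 and 51.9), a factor outside the eIF2 complex that can bind initiator tRNA, was in neither own list. eIF4H1 (108, replicates 32.8 and 63.2), a cofactor of the helicase eIF4A, was in that of replicate 2 only.

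Elongation factors were bound in 2 of 8 cases (25%, 3.19 to 65.1%) and release factors in 2 of 2 (exact lower limit 15.8%), beside 17.1% of all genes. eEF1gamma, a subunit of the exchange complex that recharges eEF1alpha with GTP, had 302, 122 and 197 in the joint list, replicate 1 and replicate 2. eEF1alpha1, which carries charged tRNAs to the ribosome, had 147, 54.3 and 79.4. Both release factor genes were bound in each library: eRF1, which reads the stop codon, with 241, 115 and 129, and its partner GTPase gene eRF3 with 202, 81.3 and 113. The eIF2B exchange complex had 0 of 5 genes bound (exact upper limit 52.2%). The eIF2 complex and eIF2A together had 1 of 4 (25%, 0.631 to 80.6%), namely eIF2A. The eIF4 genes had 1 of 13 (7.69%, 0.195 to 36%), eIF4H1. No cap-binding eIF4E gene, no eIF4G scaffold gene and not the helicase gene eIF4A was bound. However, eIF4G1 lies on chromosome 4, where the main joint list holds no peak at all, so its count says nothing particular to the gene. The intervals of all these groups include the 17.1% of all genes, and differences between them were not tested. The calls at eIF4A were weak, at 19.5 in replicate 1 and 33.4 in replicate 2, and eIF4E1, eEF2 and eIF2alpha had none in either library. Promoters without any call numbered 22 of the 87 members and 3244 of all 13968 genes.

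eIF4EHP, which encodes a cap-binding repressor of translation, was unbound by the rule despite a strong call. It is named because of this value. In the libraries' full ranked lists its promoter had a call of signal 568 and rank 35 in replicate 1, and of signal 446 and rank 77 in replicate 2, with summits 230 and 248 bp from the TSS. Both calls carried the deposited score of 1000, above the 830 that every thresholded peak has, yet none of the 4 thresholded lists holds them. In replicate 1, 95 of 3107 ranked calls with a score of 830 or more (3.06%) were missing from the own list, and in replicate 2 91 of 3628 (2.51%). Per the deposited descriptions, the thresholded lists were derived with a further input file that the ranked lists lack, and its part in the missing calls was not tested.

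Strength and summit position at the bound members are given beside those of all bound genes, with no test. The median joint signal was 179 over the 25 members (172.8 for synthetases, 202 for factors) and 146 over all 2383 bound genes. With alternative start sites counted, the summit lay upstream of the nearest TSS in 22 of 25 members (88.0%) and in 85.3% of all bound genes, at a median of -111 bp against -130 bp. Summits 50 to 200 bp upstream made up 14 of 25 (56.0%) against 47.7%. Even so, 9 of the 25 summits (36.0%) lay inside the member gene, downstream of its first start, as did 29.6% over all bound genes. The 3 members with a summit downstream of the nearest TSS were SerRS (26 bp), eIF3m (39 bp) and eIF3h (277 bp). The 25 genes had 25 distinct summits, so no summit was counted for more than 1 member. Beyond promoters, 5 of the 87 members held 11 joint summits within the gene, 6 of them in eIF5B and 2 in eIF4EHP. The share over all genes was not counted, and longer genes have more room for such summits.

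In most pairs the summit was near both genes, which the 500 bp limits on summit and partner distance favour. The counts of shared and in-between summits were not made over all bound genes with a partner. Of the 21 bound members with a divergent partner, 17 shared the summit with it, in that the partner's TSS also lay within 500 bp, and 17 had the summit upstream of both nearest TSSs. Between the closest paired start sites themselves lay 11 of the 21 summits, 8 of 12 at synthetases and 3 of 9 at factors. The 6 that were upstream of both nearest TSSs but not between the closest pair were those of AspRS, LysRS, eEF1alpha1, eIF4H1, eIF5B and eRF3. All of these but eRF3 had the summit inside the member gene, before an alternative start. The summit was nearer to the member in 15 cases and nearer to the partner in 6. The GluProRS summit lay 133 bp upstream of GluProRS and 127 bp from the TSS of AP-1sigma, a subunit of a clathrin adaptor. IleRS shared its summit with Hem, a regulator of actin (192 and 278 bp), and ThrRS with Patsas, which encodes a palmitoyltransferase (214 and 252 bp). In these 3 pairs the summit sat well between the start sites. The LeuRS-m summit, by contrast, was 9 bp from the TSS of Dhc64C, the cytoplasmic dynein heavy chain gene, and 175 bp from that of LeuRS-m. The eIF1 summit was 46 bp from the TSS of the ribosomal protein gene RpL28 and 335 bp from that of eIF1. A summit at such a site cannot be given to one gene of the pair from these data.

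The remaining pairs varied in spacing. SerRS and CG17260 start 8 bp apart, and LysRS and the ubiquitin ligase gene Hecw 62 bp apart. eIF3a pairs with CG1074, eIF3h with senju, eIF3m with CG8323, eRF1 with the histone methyltransferase subunit gene Rbbp5, and eRF3 with the splicing factor gene SC35. ProRS-m pairs with Snup, CysRS-m with O-fut1, which encodes a fucosyltransferase acting on Notch, ArgRS-m with CG17816, MetRS with CG15084 and AsnRS with the dynactin gene DCTN6-p27. For 4 members the partner's TSS was over 500 bp from the summit: eIF5B and CG46463 (601 bp), eIF4H1 and CG34015 (652 bp), eEF1alpha1 and ERp60 (1046 bp), and AspRS and Lfg (2866 bp). The AspRS summit lay inside the gene, 2828 bp downstream of its first start and 452 bp before an alternative one, and within 500 bp of a TSS of Nmda1. The bound members with a partner had a median spacing to it of 238 bp (8 to 470 bp).

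**Figure D3:**
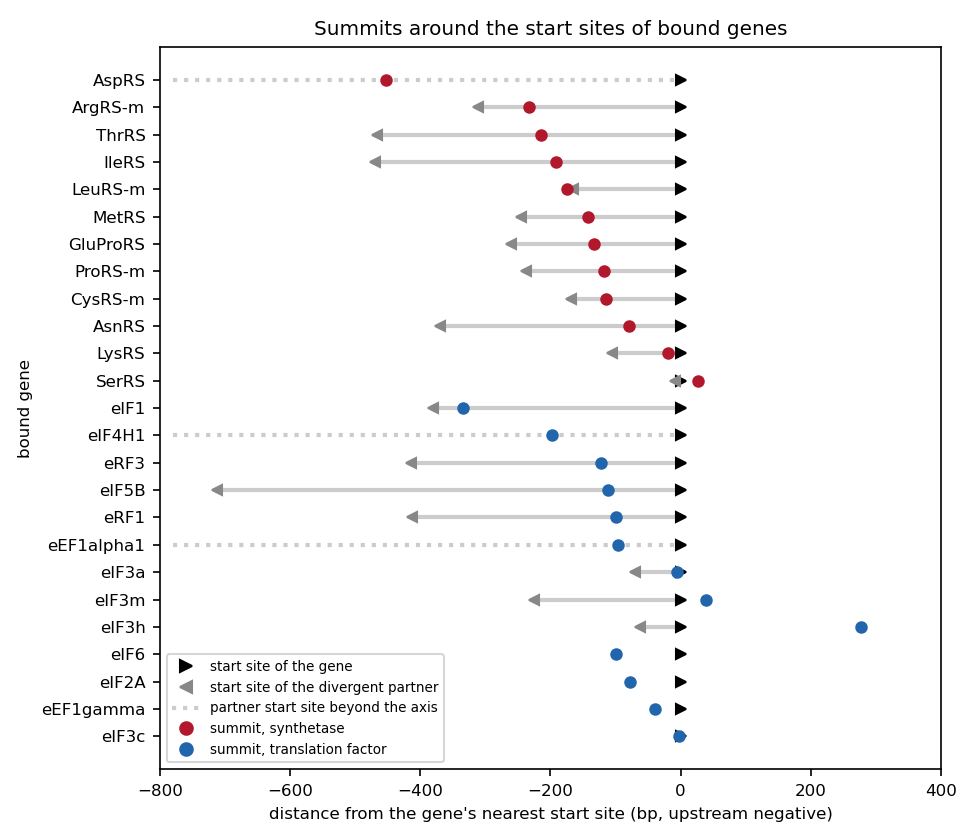
Position of the summit (coloured circle) relative to the nearest start site of each bound gene (black arrowhead at 0; x axis in bp, upstream negative), with the start site of the divergent partner nearest to the summit (grey arrowhead). The dotted lines mark partners whose start site is beyond the axis. In 17 of 21 genes with a partner the summit is upstream of both nearest start sites, which for AspRS, LysRS, eEF1alpha1, eIF4H1 and eIF5B include an alternative start inside the gene; 11 of 21 lie between the closest paired starts.

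Base composition under the summits was compared between the bound classes as a description, with no test. In windows that reach 50 bp to each side of the summit, the median share of G and C was 28.7% at the 12 bound synthetases (12.9 to 55.4%) and 43.6% at the 13 bound factors (11.9 to 61.4%), and the ranges overlap. Over 1891 summits within 500 bp of a TSS of a protein-coding gene it was 33.7%. Of the synthetases 8 of 12 lay below that median, and of the factors 2 of 13. At the members, windows 500 bp to the right had a median of 49.5%. The windows of 4 synthetases are shown with their longest unbroken run of A and T in capitals. They were chosen after their composition was seen: GluProRS, ThrRS and ProRS-m as A/T-rich examples and ArgRS-m as a G/C-rich one. All read 5' to 3' on the strand of the synthetase gene, are numbered on dm6, come from the RefSeq copy of the assembly, and overlap no annotated exon. GluProRS is chr3R:23958474-23958574 (minus strand), ThrRS is chr2L:12103487-12103587 (plus strand), ProRS-m is chr3L:2651917-2652017 (minus strand) and ArgRS-m is chr3R:7886762-7886862 (plus strand). Their longest runs have 19, 11, 32 and 4 bases in that order, and the median longest run was 12 at bound synthetases, 9 at bound factors, 10 at all promoter summits and 7 in the windows 500 bp to the right of all summits.
GluProRS: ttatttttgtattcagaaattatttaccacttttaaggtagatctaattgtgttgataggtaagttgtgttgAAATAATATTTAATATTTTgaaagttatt
ThrRS: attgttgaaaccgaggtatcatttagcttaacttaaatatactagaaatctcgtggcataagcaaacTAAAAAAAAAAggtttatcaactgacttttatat
ProRS-m: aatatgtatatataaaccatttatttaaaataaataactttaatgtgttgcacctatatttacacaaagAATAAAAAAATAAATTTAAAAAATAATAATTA
ArgRS-m: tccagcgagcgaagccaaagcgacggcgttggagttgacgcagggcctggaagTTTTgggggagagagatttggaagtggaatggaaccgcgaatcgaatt

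**Figure D4:**
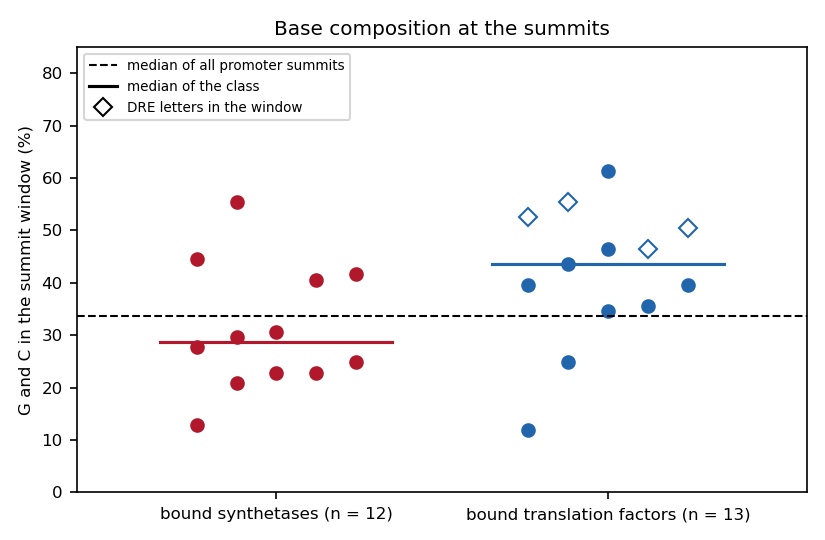
Share of G and C (y axis, %) in the window reaching 50 bp to each side of each summit of the 12 bound synthetases and the 13 bound translation factors, with class medians of 28.7% and 43.6% (solid lines) and the median of all promoter summits, 33.7% (dashed line). Open diamonds mark the 4 factor windows that hold the DRE letters.

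The DRE, the site TATCGATA recognised by the factor DREF at promoters of growth and replication genes, was in 4 of the 25 windows, eIF1, eIF2A, eIF3a and eEF1gamma. All were factors, so the count was 4 of 13 for factors and 0 of 12 for synthetases. The share of 16.0% (exact interval 4.54 to 36.1%) stood beside 2.75% of promoter summits, 1.21% of all summits and 0.298% of windows 500 bp to the right. In windows reaching 25 bp to each side the count was 2 of 25 (8%), and 0.575% over all summits. With 100 bp to each side it was 6 of 25 (24%), and 2.47% over all summits. The split between factors and synthetases was counted with 50 bp to each side only. The window part outside annotated exons is shown for 3 of them, with the DRE in capitals. Each is on the strand of its gene, and the DRE reads the same on both strands. eIF1 is chr3L:3222961-3223056 (plus), eIF3a is chr3R:4433896-4433951 (minus) and eEF1gamma is chr3R:29220083-29220171 (plus).
eIF1: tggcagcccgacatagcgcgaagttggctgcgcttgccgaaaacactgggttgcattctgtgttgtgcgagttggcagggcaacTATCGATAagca
eIF3a: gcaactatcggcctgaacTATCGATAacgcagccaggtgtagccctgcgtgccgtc
eEF1gamma: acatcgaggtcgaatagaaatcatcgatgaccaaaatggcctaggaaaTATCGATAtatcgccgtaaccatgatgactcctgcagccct

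For the other letters searched on both strands, the exact intervals at members include the share of promoter summits. With 25 windows they are wide, at 0.101 to 20.4% for a single window and 6.83 to 40.7% for GCCAT. GGTCACAC, the core of a promoter element called Motif 1, was in 1 window, that of eIF2A (4% against 2.06% of promoter summits). GAGAG, bound by the GAGA factor, was in 3 (12% against 10.1%), and GCCAT, the core of the Pho site, in 5 (20.0% against 14.2%). CAGGTA, a Zelda site, was in 1 (4% against 1.90%), as was the E box CAGCTG (4% against 4.92%). CACGTG, the E box bound by Myc and its partner Max, was in 0 of 25 (0.899% of promoter summits). Sequences of 7 bases were also ranked, over the main-list summits outside the members, by the ratio of summit windows to windows 500 bp to the right. The leading 5 had ratios from 2.74 to 2.98, and one of them, CTATCGA, can overlap the DRE. Any of the 5 was in 3 of the 25 member windows (12%), against 13.7% of promoter summits and 3.89% of the right-hand windows.

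Related translation genes outside the symbol rule were also counted. Of 34 listed symbols, 28 were counted after unmatched, repeated and member symbols were left out, and 8 of these were bound, beside the 17.1% of all genes. Regulators of the cap and of ribosome rescue had 5 of 11: pAbp, the poly(A)-binding protein gene (signal 201.3, in both own lists), larp (129.8, both), HBS1 (95.9, replicate 1 alone), Thor, which encodes the 4E-BP repressor (83.3, neither), and mxt (81.6, neither). Mitochondrial translation factors had 2 of 8, mEFTu1 (88.5) and mIF2 (76.0), and the stress response and TORC1 list 1 of 6, S6k (66.2), none of these 3 in an own list. The 3 AIMP genes, whose products hold cytosolic synthetases in a complex, were unbound. Of the phenylalanine enzyme subunits, beta-PheRS was bound (71.6, in neither own list, with no divergent partner) and alpha-PheRS was not. The tagged gene CG32772 had a promoter summit of its own with a signal of 205, in both own lists.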

How the data were processed

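Per the labels and the deposited descriptions, the peak lists are on dm6; the sources used here do not name the aligner or peak caller. The authors deposited, for each library and for both jointly, thresholded lists and ranked lists with a signal and a score per peak; both are the authors' values of unstated scaling and were used to rank and describe peaks within a list. Peaks on 7 arms were kept (4699 of 4746 in the main joint list), and none of those in the main joint list lay on chromosome 4. Genes and TSSs are those of Ensembl release 115; the RefSeq copy of the assembly places all 87 genes at the same start and end. A member's value in a library is the strongest ranked call that overlaps its joint peak, or, for unbound genes, lies within 500 bp of a TSS. Named are all bound members, those in exactly 1 own list, their partners, CG32772 and the PheRS subunits; other unbound genes were named after their values were seen. The members and lists were chosen with earlier results of these data known. Sequences of 7 bases had to be in 2% of summit windows. Intervals are exact. Python (3.11.15), matplotlib (3.10.9), scipy (1.17.1) and numpy (2.4.6) were used, and the scripts' counts tested on simulated data. Alternatives were other lists, widths, partner distances and windows.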

Additional observations from a re-analysis of the deposited data

How the results depend on the processing

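The counts of bound members, synthetases and factors were 25, 12 and 13, and 24, 12 and 12 in the other joint list. They were within 1.5 times of these under summits within 200 bp or 1000 bp and under overlap of the peak interval. With each library left out in turn, members numbered 17 to 19, synthetases 9 and factors 8 to 10. All genes stood at 12.9% without replicate 2 and 14.1% without replicate 1. Members with a partner numbered 15 each time (34.9%). All genes with one stood at 26.7% without replicate 2 and 28.6% without replicate 1. Members without a partner numbered 2 without replicate 2 (4.55%, all genes 7.65%) and 4 without replicate 1 (9.09%, all genes 8.61%). The lowest counts for factors and for members without a partner came without replicate 2. In the upper 50% of the list by signal, 16 members and 7 synthetases (10.9% of all genes) and 13 members with a partner (22.9% of all genes with one) were bound. With partners within 250 bp, 12 of 25 members with one (48%, all genes 30.5%) and 13 of 62 without (21%, all genes 14.8%) were bound. In alternatives chosen after seeing the data, 15 members, 7 synthetases and 8 factors were bound in the own lists of each library (10.8% of all genes), and 16 members and 7 synthetases among ranked calls of score 830 or more in each (11% of all genes). The median signal of bound members, 179, became 172.8 in the other joint list, 190.3 with summits within 200 bp and 201.6 within 1000 bp. With windows of 25 bp to each side, the DRE was in 2 member windows (0.575% of all summits, from 1.21%) and GAGAG in 1 (5.34%). CAGGTA (0.851% of all summits) and CTATCGA (1.13%) were in 0. Any of the 5 leading sequences of 7 bases was in 1 (5.24%). With 100 bp to each side, the DRE was in 6 member windows (2.47% of all summits), and CAGCTG (8.51%) and GGTCACAC (2.09%) were in 2 each. Of those 5, AGAATTA was in 1 (4.75% of all summits), AGTATTA in 2 (3.94%) and CTATCGA in 4 (4.06%), with any of them in 7. The background rose too, to 22% of all summits for any of the 5. No paired analysis was possible because there was 1 group. The depth is unknown, so weak sites that were not listed cannot be called absent.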
